A study of Homo sapiens with 9 samples.

Results

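The genes described here encode the enzymes of cholesterol and fatty acid synthesis, together with their regulators and the proteins that carry cholesterol within or out of the cell. The 33 genes were taken by name from the 60623 genes measured, and each name matched 1 identifier. They fall into 5 groups by role, with 8 genes for the mevalonate steps and isoprenoids, 11 for the steps from squalene to cholesterol, 5 regulators, 3 genes of sterol transport and efflux and 6 for fatty acid synthesis and desaturation. RNA-seq was performed on U937, a human leukaemia cell line of the monocytic lineage, in 3 stable lines that carried HA-tagged AML1-ETO (clone #4), HA-tagged ETO2-GLIS2 (clone #14) or the empty vector. All constructs came from a retroviral vector with a tetracycline-inducible promoter, and all 3 lines, the empty vector line included, received 5 μg/ml doxycycline for 0, 12 or 48 h. Each fusion line was grown from 1 clone, and each of the 9 conditions had 1 library, so no difference has a replicate check and no p-value was computed.

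Cells make cholesterol from acetyl-CoA through mevalonate, isoprenoids and squalene, and the same acetyl-CoA feeds the synthesis of fatty acids. When sterols are scarce in the membrane of the endoplasmic reticulum, SCAP carries the SREBP proteins, encoded by SREBF1 and SREBF2, to the Golgi apparatus, where they are cut and released to switch on the genes of both routes. When sterols are plentiful, INSIG1 holds SCAP back, and oxidised sterols activate the LXR receptors, of which NR1H2 encodes one, to switch on the efflux genes ABCA1 and ABCG1.

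Levels are given as FPKM, which corrects the reads of a gene for the length of its exons and for the depth of the library. The reads behind the values were recovered for 99.9% of genes above 0 in at least 3 libraries, and the totals on genes ranged from 15136397 to 18443639. Changes are differences of log2(FPKM + 0.01), which understates the change of very low genes. A gene was called higher or lower when it moved past 2-fold and its mean FPKM over the compared libraries was at least 1. Each interval given is an exact 95% interval (Clopper-Pearson) computed on those reads, and holds the error of counting alone. The labelled monocytic type was checked against 8 markers, of which 6 (CD33, LYZ, CD4, ITGB2, SPI1 and FCGR1A) were at 1 FPKM or more in all 9 libraries, whereas CD68 did not exceed 0.0283 FPKM and MPO did not exceed 0.78 FPKM. RUNX1T1, the ETO part of AML1-ETO, stood at 0.512, 22.2 and 28.7 FPKM at 0, 12 and 48 h in AML1-ETO cells and did not exceed 0.024 FPKM in the other lines. GLIS2 moved from 2.39 to 6.79 and 8.85 FPKM in ETO2-GLIS2 cells, beside 4.76, 3.64 and 3.72 FPKM in empty vector cells and 5.60, 2.93 and 2.47 FPKM in AML1-ETO cells.

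The first question was how the genes of sterol and fatty acid synthesis moved during the treatment in each line. Most of them fell in all 3 lines, the empty vector line included, at 12 h and further at 48 h. Of the 33 members, 28 passed the filter in each comparison, and 29 in AML1-ETO cells at 12 h. The summed FPKM of the genes of sterol synthesis fell to 27.8% of its value at 0 h after 12 h and to 18.4% after 48 h in empty vector cells, to 35.7% and 22.4% in AML1-ETO cells and to 30.1% and 17.1% in ETO2-GLIS2 cells. For the fatty acid genes these shares were 20.0% and 9.5%, 23.5% and 12.2%, and 19.8% and 10.8%. The summed FPKM therefore fell further for the fatty acid genes than for sterol synthesis in every line and at both times. SCD and FASN held most of the fatty acid sum (1212 and 465 of 1967 FPKM in empty vector cells at 0 h). Not every fatty acid gene fell further, as the log2 fold change of ACLY in empty vector cells at 48 h was -1.67, beside a median of -2.38 for sterol synthesis.

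In empty vector cells, 21 members were called lower at 12 h and 23 at 48 h, against 1.88% and 2.99% of all genes tested. None was called higher at 12 h and 1 at 48 h, against 5.64% and 8% of all genes. In AML1-ETO cells, 21 members were called lower at 12 h and 21 at 48 h, against 2.39% and 11.3% of all genes, and 1 and 2 were called higher, against 6.57% and 17.3%. The ETO2-GLIS2 line had 20 and 23 members called lower, against 1.46% and 2.54% of all genes, and none called higher at either time, against 3.03% and 10.8%. The members' share of calls was thus far above that of all genes for falls and below it for rises in each line.

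The median log2 fold change of the members that passed the filter was -1.68 at 12 h and -2.36 at 48 h in empty vector cells, while the median of all genes tested was 0.14 and 0.16. It was -1.56 and -2.11 in AML1-ETO cells, beside 0.18 and 0.22 for all genes, and -1.77 and -2.44 in ETO2-GLIS2 cells, beside 0.11 and 0.16. The small positive medians of all genes moved to between 0.01 and 0.06 when the libraries were rescaled by the median ratio, and the members' medians then lay between -2.58 and -1.71. The share of reads on mitochondrially encoded genes also fell with time, from 6.69% to 4.26% and 4.0% in empty vector cells, from 6.14% to 3.51% and 2.54% in AML1-ETO cells and from 7.01% to 4.59% and 3.32% in ETO2-GLIS2 cells. With these genes left out of the library totals, no median of the members crossed the 2-fold threshold and no count of called members moved by more than 1.5 times. Time in culture and time with doxycycline went together in all lines, so their parts in the decrease cannot be told apart. In bulk RNA, fewer cells with a transcript and less of it per cell cannot be told apart either.

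**Figure D1:**
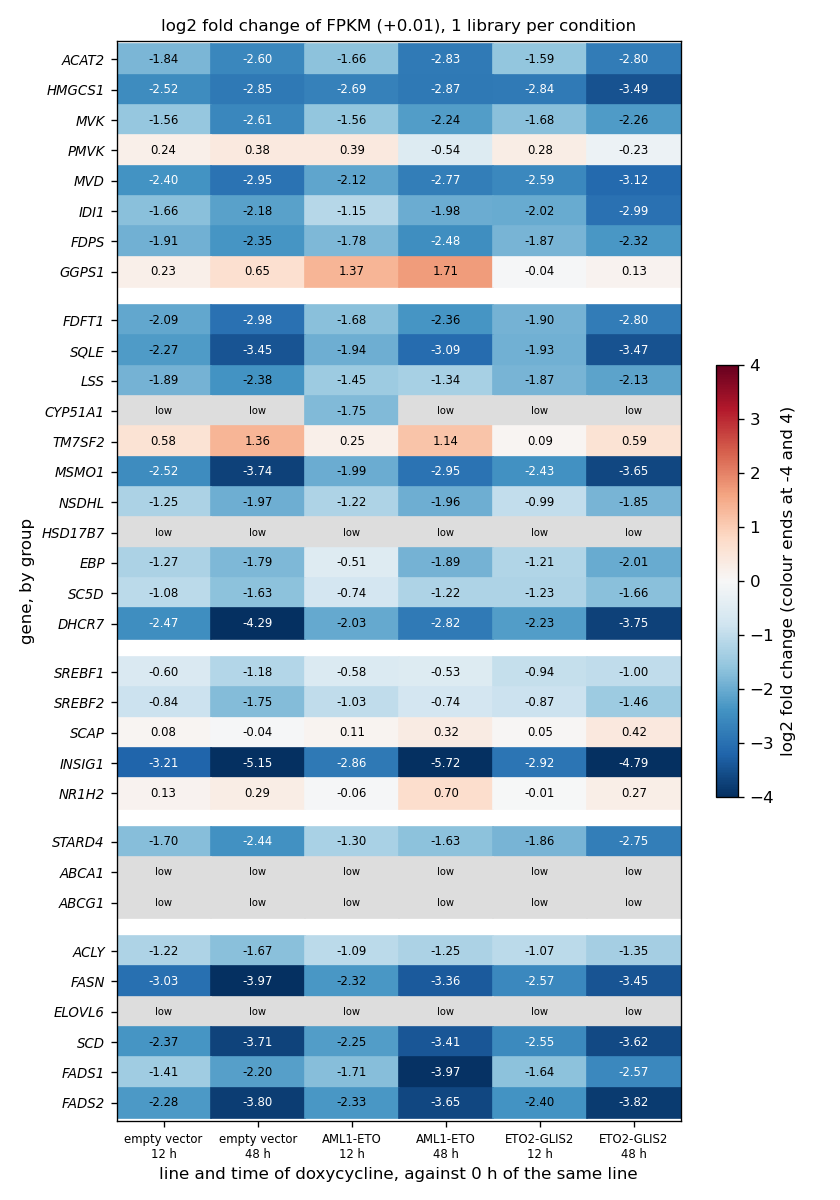
Log2 fold change of FPKM (plus 0.01) for the 33 members (rows, by group) in the 3 lines at 12 and 48 h against 0 h of the same line (columns), 1 library per condition, where "low" marks a mean FPKM under 1. Most rows are blue in all 6 columns, deepest for INSIG1 at 48 h (-5.15, -5.72 and -4.79), and the few warm cells belong to GGPS1, TM7SF2, NR1H2, SCAP and PMVK.

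Genes called lower in all 3 lines at 48 h numbered 91, or 0.84% of the 10830 genes tested in all 3, and 21 of them were members. Genes called higher in all 3 lines at 48 h numbered 229, or 2.11%, and none was a member. When both times were required, 33 genes were called lower in all 6 comparisons, or 0.313% of the 10543 genes tested in all 6, and 18 of them were members. These were ACAT2, HMGCS1, MVK, MVD, IDI1 and FDPS of the mevalonate steps, FDFT1, SQLE, LSS, MSMO1 and DHCR7 of the later sterol steps, INSIG1, STARD4, and all 5 fatty acid genes above the filter (ACLY, FASN, SCD, FADS1 and FADS2). Members thus made up 54.5% of the genes called lower at every time and in every line.

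**Figure D2:**
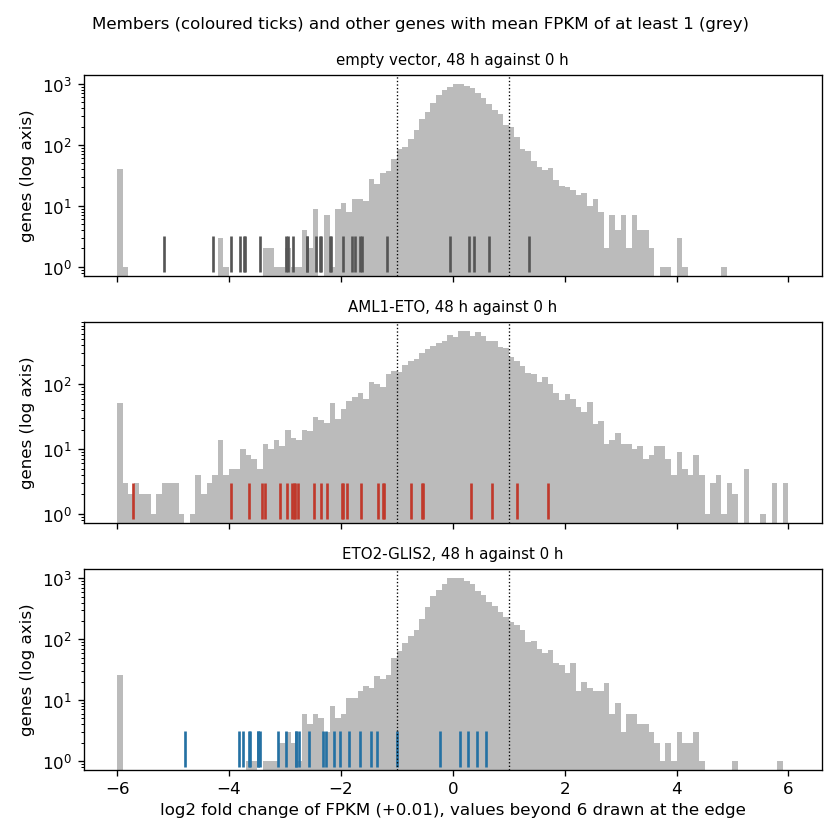
Number of genes (log axis) by log2 fold change at 48 h against 0 h for all other genes that passed the filter (grey) and for the 28 members that passed (coloured ticks), in 1 panel per line, with dotted lines at 2-fold. The ticks sit mostly in the left tail, with member medians of -2.36, -2.11 and -2.44. The medians of all genes tested, members included, are 0.16, 0.22 and 0.16, and the grey distribution is widest in AML1-ETO cells.

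The regulators of the pathway moved unequally. INSIG1 (ENSG00000186480, chromosome 7, 155297878 to 155310235, GRCh38.p14), the retention protein of SCAP and itself a known SREBP target, stood at 380, 41.0 and 10.7 FPKM at 0, 12 and 48 h in empty vector cells, at 292, 40.3 and 5.53 FPKM in AML1-ETO cells and at 427, 56.3 and 15.4 FPKM in ETO2-GLIS2 cells. It had the deepest fall of the members in each of the 6 comparisons. At 48 h it was 35.6-fold lower in empty vector cells (log2 -5.15, 95% interval -5.27 to -5.04), 52.9-fold lower in AML1-ETO cells (-5.72, -5.89 to -5.56) and 27.7-fold lower in ETO2-GLIS2 cells (-4.79, -4.89 to -4.70). Among all genes tested, it ranked 42, 57 and 27 by the size of the fall at 48 h.

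SREBF2 (ENSG00000198911, chromosome 22, 41833105 to 41907305), which encodes the SREBP that mainly drives sterol synthesis, stood at 88.2, 49.1 and 26.3 FPKM in empty vector cells, at 78.2, 38.4 and 46.8 FPKM in AML1-ETO cells and at 61.8, 33.9 and 22.5 FPKM in ETO2-GLIS2 cells. It was called lower at 48 h in empty vector cells (-1.75) and the ETO2-GLIS2 line (-1.46), and in AML1-ETO cells at 12 h (-1.03) but not at 48 h (-0.74). SREBF1, whose SREBP isoforms mainly drive fatty acid synthesis, stood at 35.3, 23.2 and 15.6 FPKM in empty vector cells, at 32.6, 21.8 and 22.6 FPKM in AML1-ETO cells and at 29.7, 15.5 and 14.8 FPKM in ETO2-GLIS2 cells. At 48 h its log2 fold change was -1.18, -0.53 and -1.0, past 2-fold in the empty vector and ETO2-GLIS2 lines. Both SREBF genes were lower at 48 h than at 12 h in the empty vector and ETO2-GLIS2 lines, and higher in AML1-ETO cells.

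SCAP and NR1H2 were not called in any comparison. SCAP stayed between 17 and 30.3 FPKM over the 9 libraries, with log2 fold changes from -0.04 to 0.42. NR1H2, the gene of LXR beta, had 10.4, 11.4 and 12.7 FPKM in empty vector cells, 14.2, 13.6 and 23.1 FPKM in AML1-ETO cells and 12.4, 12.2 and 14.9 FPKM in ETO2-GLIS2 cells. Exons of a gene on the opposite strand cover 22.1% of the exon bases of NR1H2, and the library kit named in the methods does not mark strand, so reads of the overlapping part cannot be assigned to either gene. The group of 5 regulators had median log2 fold changes of -0.60 and -1.18 in empty vector cells, -0.58 and -0.53 in AML1-ETO cells and -0.87 and -1.0 in ETO2-GLIS2 cells.

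SREBP proteins bind the sterol regulatory element, commonly next to the factors NF-Y and Sp1, and the promoters of the members were therefore searched for these motifs. RefSeq promoters (GRCh38.p14, 250 bases before to 50 after the start) were found for 28 of the 33 members, leaving ACAT2, FDFT1, SQLE, ABCG1 and FASN unmatched, and both strands were searched, where matches of different motifs may share bases. The sterol regulatory element, searched as TCACNCCAC, occurred in 1 of the 28, SREBF2, a share of 3.57% beside 1.15% of 27305 promoters of all genes and 1.03% of 8129 promoters of expressed genes, those with a mean of 1 FPKM or more. The NF-Y motif CCAAT occurred in 17 (60.7%), beside 35.7% of all promoters and 36.8% of those of expressed genes. The Sp1 motif GGGCGG occurred in 25 (89.3%), beside 44.6% and 71.8%. TGTGGT, a RUNX motif, occurred in 5 (MVD, GGPS1, LSS, SCAP and SCD, 17.9%), beside 13.1% and 9%. Of the 14 matched genes that were lower in all 6 comparisons, 11 held CCAAT, 13 held GGGCGG, 3 held TGTGGT and none held TCACNCCAC. These matches are descriptions of the letters in the window and not evidence of binding. Only these exact letters were searched for, so a missing match does not show that the element is missing. The 250 bases before the start are shown, 5′ to 3′ on the strand of the gene, for SREBF2, which held TCACNCCAC. They are also shown for 4 strongly lowered members that held CCAAT, from the regulators (INSIG1), the mevalonate steps (HMGCS1), the later sterol steps (MSMO1) and the fatty acid genes (SCD). Capitals mark TCACNCCAC in SREBF2, at -133 from the start, and CCAAT or its reverse complement in the others. The windows are chr22:41832855-41833104 (+) for SREBF2, chr7:155297628-155297877 (+) for INSIG1, chr5:43313413-43313662 (−) for HMGCS1, chr4:165327419-165327668 (+) for MSMO1 and chr10:100346983-100347232 (+) for SCD.
SREBF2: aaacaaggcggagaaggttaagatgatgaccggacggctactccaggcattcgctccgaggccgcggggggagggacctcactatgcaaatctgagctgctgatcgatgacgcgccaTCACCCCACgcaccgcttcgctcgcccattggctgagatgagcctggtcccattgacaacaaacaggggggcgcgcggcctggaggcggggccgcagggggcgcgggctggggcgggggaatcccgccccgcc
INSIG1: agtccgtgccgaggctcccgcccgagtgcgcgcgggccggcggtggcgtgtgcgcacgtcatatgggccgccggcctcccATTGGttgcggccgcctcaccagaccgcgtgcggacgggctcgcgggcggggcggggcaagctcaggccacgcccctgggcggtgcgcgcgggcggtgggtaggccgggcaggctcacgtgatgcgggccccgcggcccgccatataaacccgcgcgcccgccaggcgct
HMGCS1: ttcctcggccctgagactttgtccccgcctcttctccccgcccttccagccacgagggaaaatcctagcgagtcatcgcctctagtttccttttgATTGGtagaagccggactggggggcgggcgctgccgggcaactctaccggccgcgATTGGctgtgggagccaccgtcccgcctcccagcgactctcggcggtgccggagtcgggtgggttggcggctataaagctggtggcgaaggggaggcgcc
MSMO1: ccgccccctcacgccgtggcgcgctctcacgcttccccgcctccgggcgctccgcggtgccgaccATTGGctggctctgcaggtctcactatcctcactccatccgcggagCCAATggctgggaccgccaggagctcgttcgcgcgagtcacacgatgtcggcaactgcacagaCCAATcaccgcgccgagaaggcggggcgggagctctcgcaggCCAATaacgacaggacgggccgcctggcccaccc
SCD: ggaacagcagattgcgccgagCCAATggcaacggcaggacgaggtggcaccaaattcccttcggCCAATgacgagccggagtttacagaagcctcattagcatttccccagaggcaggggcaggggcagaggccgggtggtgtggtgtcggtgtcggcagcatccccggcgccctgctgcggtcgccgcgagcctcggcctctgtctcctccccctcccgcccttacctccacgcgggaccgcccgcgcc
CCAAT or its reverse complement began at -170 in INSIG1, at -155 and -100 in HMGCS1, at -185, -139, -76 and -34 in MSMO1, and at -229 and -186 in SCD.

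The genes of the mevalonate steps and isoprenoids fell in each line, with 6 of the 8 called lower in all 6 comparisons. Their median log2 fold change at 12 and 48 h was -1.75 and -2.48 in empty vector cells, -1.61 and -2.36 in AML1-ETO cells and -1.77 and -2.56 in ETO2-GLIS2 cells. HMGCS1 (ENSG00000112972, chromosome 5, 43287470 to 43313412), which makes the HMG-CoA from which mevalonate is formed, stood at 14.1, 2.45 and 1.94 FPKM in empty vector cells, at 43.6, 6.73 and 5.95 FPKM in AML1-ETO cells and at 24.1, 3.36 and 2.14 FPKM in ETO2-GLIS2 cells. It fell to 13.8%, 13.6% and 8.89% of its level at 0 h, although the 3 lines began from different levels. The exons of HMGCS1 are covered to 37.7% by exons on the opposite strand.

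ACAT2, the cytosolic thiolase that joins acetyl-CoA units, stood at 79.8, 22.3 and 13.1 FPKM in empty vector cells, at 62.8, 19.9 and 8.79 FPKM in AML1-ETO cells and at 92.1, 30.5 and 13.3 FPKM in ETO2-GLIS2 cells. MVD, which decarboxylates the mevalonate product, fell from 53.4 to 10.1 and 6.9 FPKM, from 49.3 to 11.4 and 7.23 FPKM, and from 53.4 to 8.84 and 6.14 FPKM in the same order of lines. IDI1, the isomerase that follows, stood at 57.9, 18.4 and 12.8 FPKM, at 55.7, 25.1 and 14.1 FPKM and at 94.3, 23.2 and 11.9 FPKM. In all 3 genes, every library at 12 h lay below every library at 0 h, and every library at 48 h below its own at 12 h. MVK, the mevalonate kinase, was 6.14-, 4.75- and 4.80-fold lower at 48 h in the empty vector, AML1-ETO and ETO2-GLIS2 lines, which had 11.4 to 12.5 FPKM at 0 h. FDPS, which builds farnesyl diphosphate, was 5.11-, 5.57- and 5.00-fold lower than levels of 58.5 to 81.2 FPKM at 0 h. FDPS has 8 named pseudogenes, none of which exceeded 0.574 FPKM.

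PMVK and GGPS1 did not follow the rest of their group. PMVK, the kinase between MVK and MVD, stood at 32.3, 38.1 and 42.0 FPKM in empty vector cells, at 43.0, 56.4 and 29.5 FPKM in AML1-ETO cells and at 37.3, 45.4 and 31.8 FPKM in ETO2-GLIS2 cells, and was within 2-fold throughout. GGPS1, which makes the geranylgeranyl diphosphate used to anchor small GTPases, stood at 1.21, 1.42 and 1.91 FPKM in empty vector cells, at 0.744, 1.94 and 2.45 FPKM in AML1-ETO cells and at 2.26, 2.20 and 2.47 FPKM in ETO2-GLIS2 cells. It was called higher in AML1-ETO cells at 12 h (1.37) and 48 h (1.71, 95% interval 1.23 to 2.23), where its level at 0 h was the lowest of the 9 libraries. That library held 47 reads of GGPS1, beside 75 to 159 in the other 8 libraries, and 37.3% of the exon bases of GGPS1 lie under exons of another gene on the same strand.

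From squalene to cholesterol, 8 of the 9 genes above the filter were called lower at 48 h in every line. The median log2 fold change of this group at 12 and 48 h was -1.89 and -2.38 in empty vector cells, -1.56 and -1.96 in AML1-ETO cells and -1.87 and -2.13 in ETO2-GLIS2 cells. FDFT1, the squalene synthase that commits farnesyl diphosphate to sterols, stood at 193, 45.6 and 24.6 FPKM in empty vector cells, at 160, 50.1 and 31.3 FPKM in AML1-ETO cells and at 207, 55.6 and 29.6 FPKM in ETO2-GLIS2 cells. SQLE, the squalene epoxidase, stood at 113, 23.5 and 10.3 FPKM, at 100.2, 26.1 and 11.7 FPKM and at 100.2, 26.2 and 9.02 FPKM. In both genes the values at 0, 12 and 48 h formed separate ranges over the 3 lines, and SQLE was 11.0-, 8.53- and 11.1-fold lower at 48 h.

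MSMO1, the methyl sterol oxidase, stood at 59.3, 10.4 and 4.44 FPKM in empty vector cells, at 57.8, 14.5 and 7.44 FPKM in AML1-ETO cells and at 86.7, 16.1 and 6.9 FPKM in ETO2-GLIS2 cells. DHCR7 (ENSG00000172893, chromosome 11, 71427287 to 71449043), which catalyses the last reduction to cholesterol, stood at 115, 20.6 and 5.84 FPKM, at 102, 25.0 and 14.5 FPKM and at 91.6, 19.5 and 6.82 FPKM. After INSIG1, DHCR7 had the deepest fall of the members at 48 h in empty vector cells (19.6-fold, log2 -4.29, 95% interval -4.45 to -4.14), and it was 13.4-fold lower in ETO2-GLIS2 cells and 7.05-fold lower in AML1-ETO cells. LSS (ENSG00000160285, chromosome 21, 46188446 to 46228774), which closes squalene epoxide into lanosterol, stood at 97.0, 26.2 and 18.7 FPKM in empty vector cells, at 87.4, 32.1 and 34.5 FPKM in AML1-ETO cells and at 77.3, 21.2 and 17.7 FPKM in ETO2-GLIS2 cells. LSS was lower at 48 h than at 12 h in the empty vector and ETO2-GLIS2 lines and not in AML1-ETO cells.

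NSDHL, EBP and SC5D act between lanosterol and the last reduction. NSDHL, the sterol dehydrogenase, fell to 25.5%, 25.7% and 27.6% of its level at 0 h at 48 h, but its log2 fold change at 12 h in ETO2-GLIS2 cells (-0.99) missed the threshold. EBP, the sterol isomerase, fell to 28.8%, 26.9% and 24.8%, and SC5D, the sterol desaturase, to 32.3%, 42.8% and 31.5%. In AML1-ETO cells at 12 h, EBP (-0.51) and SC5D (-0.74) did not reach 2-fold. The values of EBP rested on 65 to 117 reads at 48 h, and 36.4% of its exon bases lie under exons of another gene on the same strand.

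TM7SF2, a sterol reductase, moved the other way. It stood at 1.33, 1.99 and 3.42 FPKM in empty vector cells, at 1.8, 2.14 and 3.98 FPKM in AML1-ETO cells and at 1.55, 1.65 and 2.34 FPKM in ETO2-GLIS2 cells, so that the 3 values at 48 h were above the 3 at 0 h. It was called higher at 48 h in empty vector cells (1.36, 95% interval 0.96 to 1.77) and the AML1-ETO line (1.14, 0.80 to 1.5) and not in ETO2-GLIS2 cells (0.59, 0.20 to 0.98). CYP51A1, the lanosterol demethylase, passed the filter in AML1-ETO cells at 12 h alone, where it was called lower (-1.75). It stood at 1.72, 0.225 and 0.239 FPKM in empty vector cells, at 1.69, 0.496 and 0.149 FPKM in AML1-ETO cells and at 1.15, 0.507 and 0.173 FPKM in ETO2-GLIS2 cells, with 8 to 13 reads at 48 h and 68.2% of its exon bases under exons of other genes on the same strand. HSD17B7, the ketosteroid reductase, was listed at 0 in all 9 libraries, as were its 2 named pseudogenes. Whether the zeros of HSD17B7 and the near-zeros of CD68 reflect absent transcripts or the counting of reads was not tested.

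Of the transport and efflux genes, only STARD4 passed the filter. STARD4, a carrier of sterols between membranes, stood at 18.1, 5.58 and 3.34 FPKM in empty vector cells, at 16.7, 6.76 and 5.39 FPKM in AML1-ETO cells and at 30.7, 8.48 and 4.55 FPKM in ETO2-GLIS2 cells, and was called lower in all 6 comparisons. ABCA1, the pump that loads cholesterol onto apolipoprotein, stayed between 0.121 and 0.51 FPKM, and its intervals at 48 h reached from -1.45 to -0.13 in empty vector cells, from -0.99 to 0.47 in AML1-ETO cells and from -1.01 to 0.17 in ETO2-GLIS2 cells. ABCG1, which exports cholesterol to lipoprotein particles, had 0 or 1 read in every library. At 12 h the intervals of ABCA1 reached from 0.19 to 1.19, from -1.63 to 0.01 and from -1.31 to -0.08 in the same order of lines. The ABCA1 intervals that leave out 0 thus pointed up at 12 h and down at 48 h in empty vector cells and down at 12 h in ETO2-GLIS2 cells. They rested on 21 to 87 reads per library and lay below the filter.

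Among the groups of members, the fatty acid genes had the lowest median in each comparison, while ACACA, which is no member and is given further on, was not called. All 5 that passed the filter were called lower in all 6 comparisons, with median log2 fold changes at 12 and 48 h of -2.28 and -3.71 in empty vector cells, -2.25 and -3.41 in AML1-ETO cells and -2.40 and -3.45 in ETO2-GLIS2 cells. SCD (ENSG00000099194, chromosome 10, 100347233 to 100364826), the desaturase that makes oleate, had the highest FPKM of the members in all 9 libraries and stood at 1212, 235 and 92.8 FPKM in empty vector cells, at 773, 163 and 72.7 FPKM in AML1-ETO cells and at 1035, 177 and 84.4 FPKM in ETO2-GLIS2 cells. FASN (ENSG00000169710, chromosome 17, 82078338 to 82098236), the fatty acid synthase, stood at 465, 57.1 and 29.7 FPKM, at 324, 65.0 and 31.6 FPKM and at 254, 42.7 and 23.3 FPKM. At 48 h SCD was 13.1-, 10.6- and 12.3-fold lower and FASN 15.7-, 10.2- and 10.9-fold lower in the empty vector, AML1-ETO and ETO2-GLIS2 lines.

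FADS2 and FADS1 are neighbouring genes whose enzymes desaturate polyunsaturated fatty acids. FADS2 stood at 83.8, 17.2 and 6.0 FPKM in empty vector cells, at 66.0, 13.2 and 5.25 FPKM in AML1-ETO cells and at 67.4, 12.8 and 4.76 FPKM in ETO2-GLIS2 cells. FADS1 (ENSG00000149485, chromosome 11, 61799627 to 61817003) stood at 64.0, 24.1 and 13.9 FPKM, at 55.0, 16.8 and 3.51 FPKM and at 62.4, 20.0 and 10.5 FPKM. The 3 lines fell alike for FADS2, 12.6- to 14.2-fold at 48 h, whereas FADS1 was 15.7-fold lower in AML1-ETO cells and 4.59- and 5.93-fold lower in the empty vector and ETO2-GLIS2 lines. ACLY, which splits citrate into cytosolic acetyl-CoA, fell least in this group, to 31.5%, 42.0% and 39.2% of its level at 0 h, which was 107 to 141 FPKM. ELOVL6, an elongase, did not exceed 0.0669 FPKM and was listed at 0 in AML1-ETO cells.

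**Figure D3:**
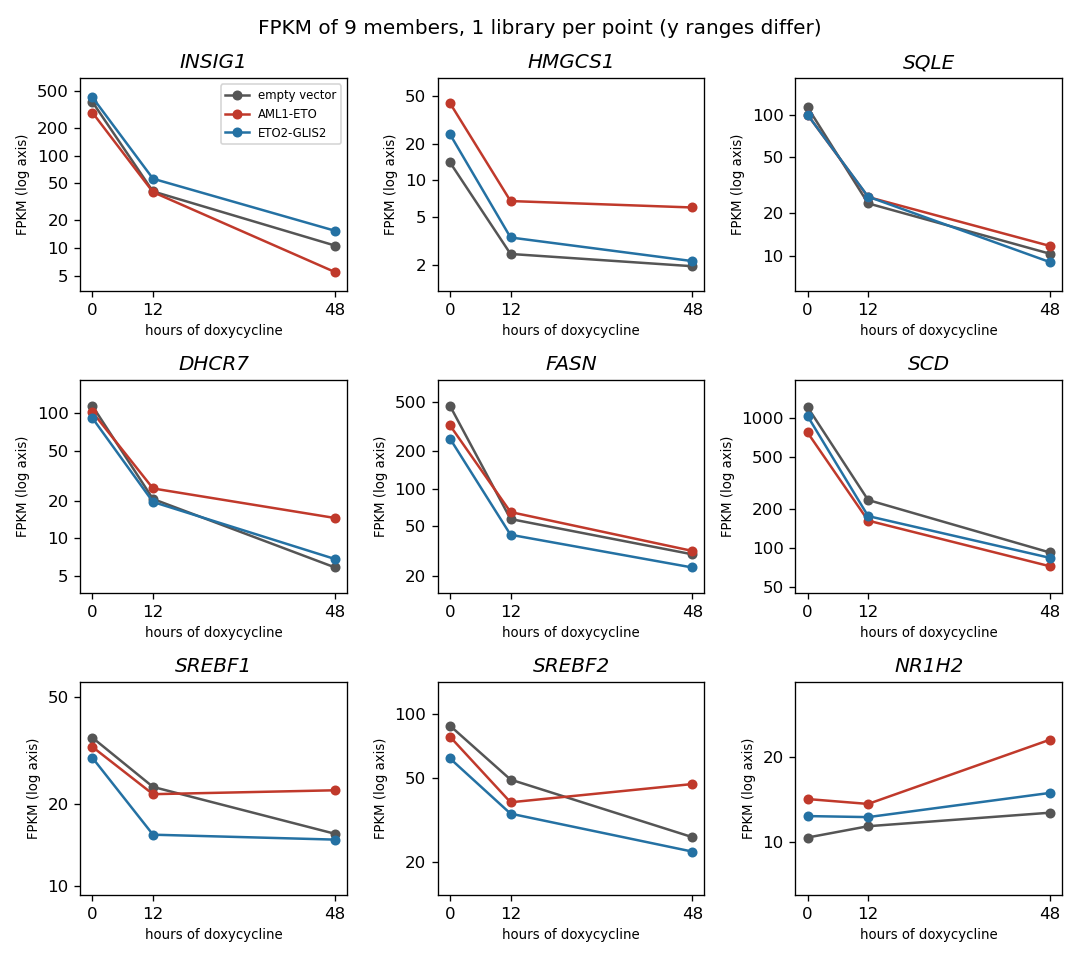
FPKM (log axis, with a range of its own in each panel) of 9 members against hours of doxycycline in the 3 lines, 1 library per point. INSIG1, HMGCS1, SQLE, DHCR7, FASN and SCD fall steeply by 12 h in all lines, whereas SREBF1 and SREBF2 level off or rise after 12 h in AML1-ETO cells and NR1H2 does not fall below 10.4 FPKM.

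On the log2 scale most of the decrease was reached by 12 h, and most members then went lower still. Between 12 and 48 h, 24, 21 and 24 of 28 members were lower at 48 h in empty vector, AML1-ETO and ETO2-GLIS2 cells, with median log2 differences of -0.65, -0.69 and -0.72. Across the 28 members, the changes at 48 h of the empty vector and ETO2-GLIS2 lines had a Pearson r of 0.972, those of the empty vector and AML1-ETO lines 0.919 and those of the fusion lines 0.933. At 12 h these values were 0.975, 0.946 and 0.940. They are correlations over genes, which are not independent, and describe the likeness of the members' changes in 3 pairs of lines. The lines within a pair share no library, but the pairs share lines.

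The next question was whether the members moved differently in the fusion lines than in empty vector cells. The change in empty vector cells was subtracted from that in each fusion line, so the differences of both fusion lines share the empty vector libraries. In ETO2-GLIS2 cells, no member was called at 12 h, against 2.18% of all genes higher and 3.46% lower, and none at 48 h, against 4.4% higher and 3.94% lower. The median difference of the members was -0.02 at 12 h and 0.01 at 48 h, beside -0.02 and 0.02 for all genes. At 48 h the differences ranged from -0.81 for IDI1 to 0.55 for DHCR7. The members that passed the filter therefore changed in ETO2-GLIS2 cells within 2-fold of their change in empty vector cells. Below the filter, the difference at 12 h was 1.72 for CYP51A1, -1.33 for ABCA1 and -1.63 for ELOVL6. At 48 h it was -1.60 for ELOVL6 and -1.04 for ABCG1, and all of these rested on few reads.

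In AML1-ETO cells, the members fell somewhat less than in empty vector cells. Their median difference was 0.18 at 12 h and 0.36 at 48 h, beside 0.02 at both times for all genes. At 48 h, 20 of 28 members were above 0 and 8 below, while 48.5% of all genes were below 0. At 12 h, 2 members were called higher and none lower, against 3.78% and 4.73% of all genes. These were GGPS1 (1.14 ± 0.340, SE from read counts only) and CYP51A1 (1.14 ± 0.541), which had low counts. CYP51A1 passed the filter through its levels at 0 h (1.72 and 1.69 FPKM in empty vector and AML1-ETO cells), beside 0.225 and 0.496 FPKM at 12 h. At 48 h, 4 members were called higher and 1 lower, against 9.99% and 13.2% of all genes, so the share of members called higher was near that of all genes and the share called lower was below it.

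The members called higher than in empty vector cells at 48 h were DHCR7 (1.47 ± 0.0916, SE from read counts only), GGPS1 (1.05 ± 0.324), LSS (1.04 ± 0.0439) and SREBF2 (1.0 ± 0.0384), and LSS and SREBF2 lay close to the threshold. FADS1 was lower (-1.77 ± 0.072). Of the members below the threshold, STARD4 (0.81), MSMO1 (0.78), SREBF1 (0.65), FDFT1 (0.62) and FASN (0.61) were on the higher side and PMVK (-0.92) and INSIG1 (-0.57) on the lower side. The same differences in ETO2-GLIS2 cells were 0.55 for DHCR7, -0.53 for GGPS1, 0.25 for LSS, 0.29 for SREBF2 and -0.37 for FADS1. FADS1 and DHCR7 also differed in level, with 3.51 FPKM of FADS1 and 14.5 FPKM of DHCR7 in AML1-ETO cells at 48 h beside 13.9 and 5.84 FPKM in empty vector cells. For FASN and GGPS1, the higher value rested in large part on a lower level at 0 h in AML1-ETO cells. Their log2 differences in level from empty vector cells were -0.52 and -0.69 at 0 h, and 0.09 and 0.36 at 48 h. For PMVK, the lower value rested in part on a higher level at 0 h, with differences in level of 0.42 at 0 h and -0.51 at 48 h. Those of INSIG1 were -0.38 and -0.95.

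**Figure D4:**
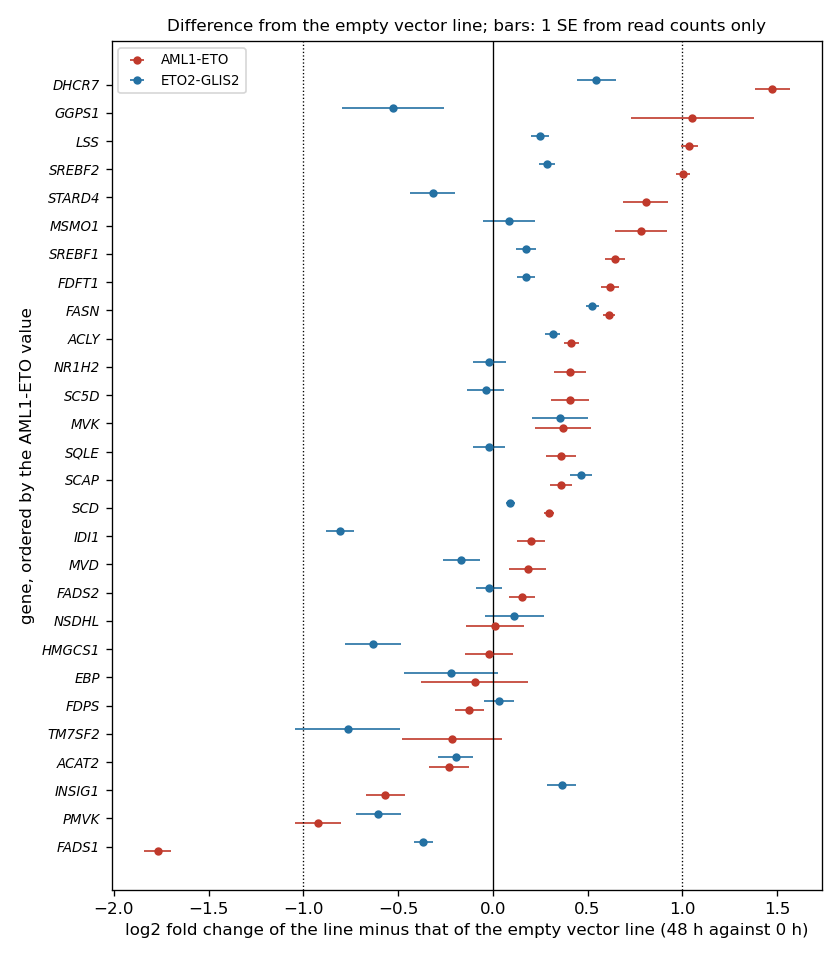
Log2 fold change at 48 h against 0 h in AML1-ETO cells (red) and the ETO2-GLIS2 line (blue) minus that in empty vector cells, for the 28 members that passed (rows, ordered by the AML1-ETO value), with bars of 1 SE from read counts only and dotted lines at 2-fold. Blue points stay between -0.81 and 0.55, whereas red points of DHCR7 (1.47), GGPS1 (1.05), LSS (1.04) and SREBF2 (1.0) reach past the right line and that of FADS1 (-1.77) past the left.

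Before induction, the lines were alike for most members. In the uninduced AML1-ETO line the members' median log2 difference from the uninduced empty vector line was -0.11, ranging from -0.65 to 1.63, and HMGCS1 alone was past 2-fold. In the uninduced ETO2-GLIS2 line the median was -0.04, ranging from -0.88 to 0.93, and none was past 2-fold. At 48 h, 3 members in AML1-ETO cells were past 2-fold from the empty vector line at the same time, HMGCS1 (1.61), DHCR7 (1.31) and FADS1 (-1.99), and none in ETO2-GLIS2 cells. The difference in HMGCS1 was thus present at 0 h and of the same size at 48 h, and with 1 clone per fusion a difference between clones and an effect of the fusion protein cannot be told apart.

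A list of 28 other genes of lipid metabolism was counted by the same rule, of which 25 passed the filter in each comparison, and 26 in AML1-ETO cells at 12 h. In empty vector cells, 2 were called lower at 12 h and 2 at 48 h, against 1.88% and 2.99% of all genes, and none higher, against 5.64% and 8%. In AML1-ETO cells 2 and 6 were called lower, against 2.39% and 11.3%, and 1 and 1 higher, against 6.57% and 17.3%. In ETO2-GLIS2 cells 2 and 3 were called lower, against 1.46% and 2.54%, and 0 and 1 higher, against 3.03% and 10.8%. The list's median log2 fold change lay between -0.22 and -0.09, beside -2.44 to -1.56 for the members. Both sets of genes were chosen with earlier results of these data known, so this contrast is a description and not a test. The list also holds genes of fatty acid synthesis and elongation, among them ACACA, the acetyl-CoA carboxylase that makes the malonyl-CoA used by FASN. ACACA stood at 8.98, 6.93 and 4.75 FPKM in empty vector cells, at 10.4, 7.64 and 9.79 FPKM in AML1-ETO cells and at 6.42, 4.92 and 4.72 FPKM in ETO2-GLIS2 cells, and was called in no comparison (-0.92, -0.09 and -0.44 at 48 h). The pair lower in all 6 comparisons was ACSS2, which makes cytosolic acetyl-CoA from acetate, and TMEM97, a sterol-responsive membrane protein. ACSS2 stood at 44, 9.13 and 7.01 FPKM in empty vector cells, at 40.8, 7.36 and 8.83 FPKM in AML1-ETO cells and at 52.1, 9.11 and 8.75 FPKM in ETO2-GLIS2 cells. TMEM97 stood at 50, 14.8 and 9.36 FPKM, at 44.8, 19.4 and 5.81 FPKM and at 37.7, 14.7 and 5.91 FPKM. Both fell by 12 h in each line, and between 12 and 48 h both went lower except ACSS2 in AML1-ETO cells.

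The gene of this list called higher was PLIN2, which coats lipid droplets. PLIN2 stood at 10.0, 10.9 and 16.6 FPKM in empty vector cells, at 10.2, 27.0 and 180.3 FPKM in AML1-ETO cells and at 11.7, 15.5 and 24.8 FPKM in ETO2-GLIS2 cells. It was called higher in AML1-ETO cells at 12 h (1.41) and 48 h (4.15, 95% interval 4.05 to 4.25) and in ETO2-GLIS2 cells at 48 h (1.08). CPT1A, which admits fatty acids to the mitochondria for oxidation, stood at 34.3, 33.0 and 28.7 FPKM in empty vector cells, at 31.1, 21.6 and 4.63 FPKM in AML1-ETO cells and at 27.1, 29.9 and 30.7 FPKM in ETO2-GLIS2 cells. Its fall past 2-fold was seen in AML1-ETO cells at 48 h (-2.74) and in no other comparison. The acyl-CoA synthetase ACSL1 (-1.11), the elongase ELOVL5 (-1.02) and the fatty acid binding protein FABP5 (-3.09) were also called lower in AML1-ETO cells at 48 h, and the acyl-CoA synthetase ACSL3 in ETO2-GLIS2 cells at 48 h (-1.13). FABP5 stood at 4.5, 6.7 and 0.518 FPKM in AML1-ETO cells. Other enzymes of the pathway are not analysed here.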

How the data were processed

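RNA-seq of 9 U937 libraries (3 lines at 0, 12 and 48 h of 5 μg/ml doxycycline) was analysed, with groups taken from the sample labels. Alignment to hg38 was done by the authors with HISAT2 (2.0.5) and SAMtools (1.7), genes were counted with HTSeq (0.9.1), and FPKM was deposited for each library, per the methods and the submitters' processing notes. Which annotation was used, and how exon length was defined, is not given in the sources used here.

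Within a gene, the deposited FPKM values are multiples of the value of a single read, so reads were recovered from them in Python (3.11.15, with scipy 1.17.1, pandas 2.3.3 and numpy 2.4.6). Whole reads were obtained for 23862 of 23889 genes above 0 in at least 3 libraries, and 99.6% of exon lengths came out whole within 0.1 base. They served for the intervals, the standard errors, the read counts given, the totals on genes and the share of mitochondrial reads. Plots were drawn with matplotlib (3.10.9). Log2 fold changes used FPKM plus 0.01. A gene was called past 2-fold with a mean of at least 1 FPKM over the compared libraries. Tested on simulated data for the empty vector line at 48 h (23862 genes, 200 changed 4-fold), this rule called 200 of the changed genes in the right direction and 175 unchanged ones. The simulated reads held counting error alone, and the planted changes were larger than the threshold. The simulation therefore does not show how the rule behaves under the spread between cultures or clones.

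The members, their groups, the list of other lipid genes and the cell type markers were chosen with earlier results of these data known. The marker lists of other cell types are not reported here. Genes were named when called in any comparison, with a few members named whatever their values. Gene positions and promoters came from RefSeq tables for GRCh38.p14. The overlap of exons came from a GENCODE annotation on GRCh37, from which no coordinates were taken. Alternatives covered the pseudocount, the filter, the scaling, the fold threshold, the reference library and the treatment of the empty vector line. Pseudogenes of members were found by name. The 15 found, for 5 members, stayed below 1 FPKM.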

Additional observations from a re-analysis of the deposited data

How the results depend on the processing

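The numbers of members called lower against 0 h and the members' medians kept their direction and their side of the 2-fold threshold under a pseudocount of 1 FPKM, a filter at 5 FPKM, no filter and both rescalings, and with mitochondrial genes left out of the totals no median changed sides and no count moved by more than 1.5 times. The calls of higher members depended on low genes. With a pseudocount of 1 FPKM, 0 members were higher at 48 h in empty vector cells, 0 and 0 at 12 and 48 h in AML1-ETO cells, and 0 at 12 h and 2 at 48 h in AML1-ETO cells relative to the empty vector line, and the regulators' median at 48 h in ETO2-GLIS2 cells was -0.96. With a filter at 5 FPKM, 0 were higher at 48 h in empty vector cells, 0 and 0 in AML1-ETO cells, and 0 at 12 h relative to the empty vector line. Without a filter, 2 were higher at 48 h in empty vector cells and 2 at 12 h in AML1-ETO cells. Relative to the empty vector line, 1 was then lower in AML1-ETO cells at 12 h, 1 was higher and 2 lower in ETO2-GLIS2 cells at 12 h, and 2 were lower there at 48 h. The median of the transport and efflux genes without a filter, which then included ABCA1 and ABCG1, was 0 and -0.75 at 12 and 48 h in empty vector cells, -0.74 and -0.24 in AML1-ETO cells and -0.66 and -0.40 in ETO2-GLIS2 cells. Scaling by the median ratio left 1 member higher at 48 h in AML1-ETO cells. At a threshold of 1.5-fold, 2 were higher at 48 h in empty vector cells and 1 in ETO2-GLIS2 cells, and relative to the empty vector line 4 were higher at 12 h and 9 higher and 2 lower at 48 h in AML1-ETO cells, and 4 lower at 48 h in ETO2-GLIS2 cells. When the uninduced empty vector library served as the reference, 0 members were higher in AML1-ETO cells at 12 h and 1 in ETO2-GLIS2 cells at 48 h. Leaving out members past 2-fold in the same direction in empty vector cells left 1 and 0 lower at 12 and 48 h in AML1-ETO cells, 1 higher at 48 h in that line, and 0 and 0 lower in ETO2-GLIS2 cells.

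No paired analysis was possible because the labels carry no replicate numbers and each condition had 1 library. Leaving out a replicate was not possible for the same reason. Intervals and standard errors hold counting error only and leave out the spread between cultures and between clones, so a difference between lines near 2-fold cannot be told apart from that spread. For ABCA1, ABCG1, ELOVL6 and CYP51A1, few reads limit the precision.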

Other observations

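Genes outside the members also fell below their levels at 0 h, and the following were chosen after their values were seen. Among the 33 genes lower in all 6 comparisons with 0 h were the immediate early genes EGR1 and FOS. EGR1 stood at 40.9, 0.527 and 0.683 FPKM at 0, 12 and 48 h in empty vector cells, at 66.4, 2.71 and 4.71 FPKM in AML1-ETO cells and at 19.6, 0.802 and 2.03 FPKM in ETO2-GLIS2 cells. FOS stood at 73.1, 3.01 and 3.98 FPKM, at 134.9, 9.96 and 13.3 FPKM and at 69.0, 5.60 and 8.65 FPKM. In both genes the value at 48 h was above that at 12 h in each line, unlike INSIG1, FASN, SCD and DHCR7, which were lower at 48 h than at 12 h in each line.

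ERG28, which encodes a scaffold of the sterol enzymes in the endoplasmic reticulum, was in the same set, with 32.1, 12.9 and 9.91 FPKM in empty vector cells, 41.5, 16.5 and 15.2 FPKM in AML1-ETO cells and 44.6, 16.4 and 12.4 FPKM in ETO2-GLIS2 cells. TUBA1A, an alpha tubulin, stood at 47.6, 11.0 and 8.79 FPKM, at 51.5, 16.8 and 15.8 FPKM and at 76.6, 22.9 and 13.8 FPKM. The mitochondrially encoded MT-ND4 was also lower in all 6, from 6814 to 2983 and 3284 FPKM in empty vector cells, from 4717 to 2148 and 876 FPKM in AML1-ETO cells and from 7719 to 3750 and 2148 FPKM in ETO2-GLIS2 cells.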
